A study of Mus musculus with 12 samples.

Results

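The effect of an O-GlcNAc transferase inhibitor on gene expression was compared between undifferentiated mouse embryonic stem cells (mESCs) and the same line exposed to retinoic acid (RA). For each gene, the change with inhibitor in mESCs was subtracted from the change with inhibitor in RA-treated cells. Levels were taken as log2(FPKM + 1), where FPKM is the number of fragments scaled to gene length and to library size. Genes entered when they reached 1 FPKM in at least 3 of the 12 libraries, which left 14866 of the 54555 genes in the deposited table. A positive difference means that the inhibitor raised the transcript more, or lowered it less, in RA-treated cells than in mESCs.

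The cells were of R1, an established mESC line grown on gelatin with leukemia inhibitory factor (LIF). The 4 groups held 3 libraries each, and the labels do not say whether these came from separate cultures, so p-values measure the spread between libraries, which may be technical. mESC_control cells were untreated, and mESC_OGTi cells were given 25 µM Ac45SGlcNAc for 48 h. RA_control cells had a DMSO pre-treatment and were then kept for 48 h in LIF-free medium with 1 µM RA. RA_OGTi cells had the inhibitor as their pre-treatment and then the same RA step. The sources used here do not say whether the inhibitor stayed on the cells during RA. The state of the cells therefore cannot be told apart from the loss of LIF, from the vehicle, or from the time spent with or after the inhibitor.

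O-GlcNAc is a single sugar placed on serine and threonine residues of many nuclear and cytosolic proteins. OGT adds it, O-GlcNAcase removes it, and the hexosamine pathway makes its donor from glucose. Cells are known to adjust the transcripts of both enzymes when the amount of the modification shifts. RA binds nuclear receptors that sit on DNA as pairs and switch on Hox genes and the genes of RA breakdown, while mESCs lose the pluripotency network that LIF sustains.

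Libraries held 15553627 to 17833464 fragments assigned to genes. State separated the libraries along the first principal component (76.7% of variance), and inhibitor along the second (7.43%). The summed level of 5 mESC markers was 1821 to 1825 FPKM in mESC_control, 1792 to 1834 in mESC_OGTi, 283 to 318 in RA_control and 233 to 250.3 in RA_OGTi. In the same order of groups, 5 extraembryonic endoderm markers summed to 5.61 to 6.15, 6.07 to 7.08, 15.8 to 17.9 and 18.2 to 18.97 FPKM. Neural markers (5) summed to 38.5 to 41.7, 44.1 to 51.9, 19.3 to 21.5 and 15.03 to 19.002 FPKM. For 8 fibroblast or feeder markers the sums were 11.6 to 12.6, 11.3 to 12.1, 19.6 to 21.8 and 24.0 to 24.9 FPKM, with Dcn at 0 in every group. For 5 trophoblast markers they were 1.05 to 1.75, 1.58 to 1.73, 3.89 to 5.26 and 5.21 to 5.88 FPKM, and for 5 mesoderm markers 3.53 to 4.43, 3.71 to 4.77, 2.91 to 3.52 and 3.97 to 4.37 FPKM. Passing the filter were 2 of 5 neural, 4 of 8 fibroblast or feeder, 3 of 5 trophoblast and 1 of 5 mesoderm markers. All mESC and extraembryonic endoderm markers passed. In bulk RNA of this kind, fewer cells of a type and less transcript per cell cannot be told apart, and the part of cell composition in the results below was not tested.

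The inhibitor effect differed between the states for genes of sterol and fatty acid synthesis, keratins and claudins, cytoskeletal targets of YAP and SRF, the integrated stress response, LIF targets and germline genes, each with other members that were not called. Limma called the difference for 1143 genes at an adjusted p under 0.05, which is 7.69% of those tested. The difference was positive for 580 genes (3.9%) and negative for 563 (3.79%). Most were small, with a median absolute difference of 0.48 on the log2 scale. In 13 genes the difference was 1 or more, and in 59 it was -1 or less. Of the called genes 1057 were protein coding. Under TPM scaling, 739 genes were higher and 464 lower, a share of 61.4% higher against 50.7% in the deposited scaling. The calls leaned on single libraries, and 522 of the 1143 were made in every fit that left out 1 library (leave-one-out fits). Where a gene is said to lose its call, the number in parentheses is the adjusted p of the fit that lost it, or their range. Losses under other settings are not given for every gene. The total ran from 638 to 1032 in the leave-one-out fits. It was 638 without RA_OGTi replicate 1, 705 without mESC_OGTi replicate 2, 726 without RA_control replicate 1 and 744 without mESC_control replicate 2.

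The calls came mainly from RA-treated cells. The inhibitor effect itself was called for 1157 genes in mESCs (7.78%) and for 4738 in RA-treated cells (31.9%). The count in mESCs was 361 without mESC_OGTi replicate 2, 430 without mESC_control replicate 2, 489 without mESC_control replicate 1 and 535 without mESC_OGTi replicate 3. Among the 1143 genes with a called difference, 896 had a called effect only in RA-treated cells, of which 468 were higher and 428 lower. The effect was called only in mESCs for 92 genes. It was called in both states for 121, among them 43 with opposite directions, 73 with the same direction and a larger effect in RA-treated cells, and 5 with the same direction and a larger effect in mESCs. In 34 genes neither effect was called alone. The absolute effect was larger in RA-treated cells for 980 of the 1143 (85.7%), beside 64.7% of all genes tested.

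**Figure D1:**
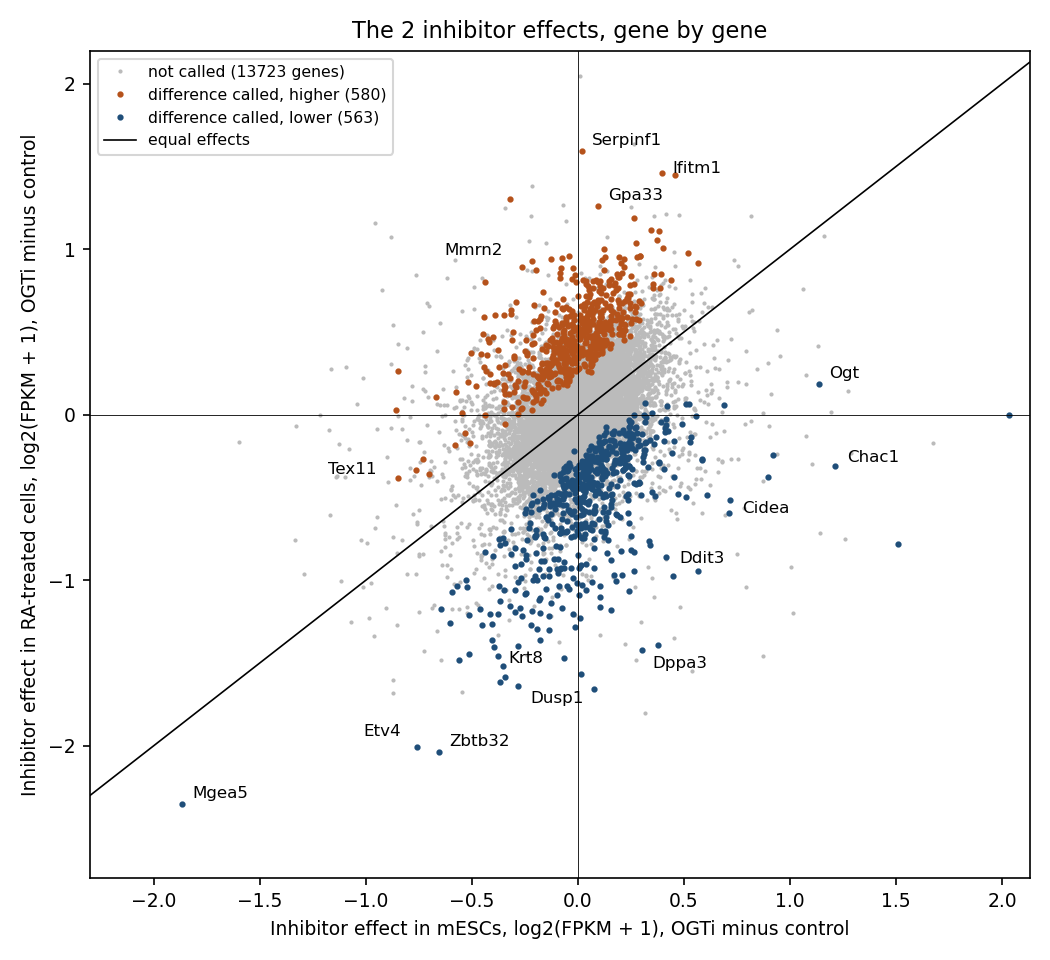
Inhibitor effect in mESCs (horizontal axis) against inhibitor effect in RA-treated cells (vertical axis), both as differences of mean log2(FPKM + 1), for the 14866 genes tested. Genes on the diagonal had equal effects. The 580 orange points lie above it and the 563 blue points below it, and most of both stretch along the vertical axis, where the effect in mESCs is near 0.

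For 130 called genes both mESC groups averaged under 1 FPKM. On the log2(FPKM + 1) scale a gene near 0 can hardly change, so for these genes the difference is close to the effect in RA-treated cells alone. Of the 130, limma-voom on recovered fragments also called 27, beside 910 of the other 1013 called genes. With a pseudocount of 0.1 in place of 1, the numbers were 34 and 887.

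The enzymes of O-GlcNAc cycling were among the genes whose response depended on state. Of 11 tested members of the O-GlcNAc and hexosamine list, 3 were called (27.3%, beside 7.69% of all genes), each lower. Below 0 lay 10 of the 11 differences. Their median was -0.19, beside 0.0041 over all genes. Ogt (ENSMUSG00000034160, chrX:101640060-101684351, GRCm38), which encodes the targeted enzyme, stood at 20.2, 17.6 and 16.4 FPKM in mESC_control, 40.9, 41.4 and 39.9 in mESC_OGTi, 24.6, 25.3 and 19.6 in RA_control, and 25.9, 28.5 and 24.7 in RA_OGTi. The 3 mESC_OGTi libraries lay above every other library, while in RA-treated cells the inhibitor and control libraries overlapped. The inhibitor effect was 1.14 in mESCs (adjusted p = 0.000326) and 0.19 in RA-treated cells (adjusted p = 0.167), a difference of -0.95 (SE 0.14, adjusted p = 0.00292). The Ogt level is a response to the inhibitor and not a check of it, since the compound acts on the protein.

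Mgea5 (ENSMUSG00000025220, chr19:45750261-45783520), the deposited symbol for O-GlcNAcase, stood at 38.1, 36.1 and 37.4 FPKM in mESC_control, 9.81, 9.41 and 9.16 in mESC_OGTi, 46.8, 48.2 and 43.3 in RA_control, and 7.82, 9.56 and 7.39 in RA_OGTi. It fell in both states, with all 6 inhibitor libraries below all 6 controls. The effect was -1.87 in mESCs and -2.35 in RA-treated cells, a difference of -0.48 (SE 0.11, adjusted p = 0.0221). Gfpt1 (ENSMUSG00000029992, chr6:87042846-87092197), the entry enzyme of the hexosamine pathway, averaged 6.3 ± 0.576 FPKM in mESC_control and 7.37 ± 0.305 in mESC_OGTi, and 12.5 ± 0.43 in RA_control and 11 ± 0.291 in RA_OGTi (SD, n = 3). Its difference was -0.37 (SE 0.084, adjusted p = 0.0244). Mgea5 lost its call without RA_OGTi replicate 1 (0.0583), without RA_control replicate 1 (0.0515) and without mESC_control replicate 2 (0.0526) and under TPM scaling (0.0791), and Gfpt1 in 6 of the 12 leave-one-out fits (0.052 to 0.0611) and under TPM scaling (0.0827).

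Several genes of the integrated stress response were raised by the inhibitor in mESCs and not in RA-treated cells, where Ddit3 and Atf4 fell. In this response, phosphorylation of an initiation factor lowers general translation and favours ATF4, which activates amino acid and stress genes such as Ddit3, Chac1 and Trib3. Of 28 tested members, 8 were called lower and 1 higher, and the list median was -0.044, so the calls concerned a subset. Over the whole list, the inhibitor effect in mESCs was called up for 8 members and down for 0. In RA-treated cells it was called up for 9 members and down for 4. Chac1 (ENSMUSG00000027313, chr2:119351229-119354381), which degrades glutathione, had the most negative difference of the list, with levels of 9.09, 17.7 and 16.7 FPKM in mESC_control, 38, 41.8 and 23.7 in mESC_OGTi, 22.8, 23.1 and 21.4 in RA_control, and 21.1, 14.9 and 18.3 in RA_OGTi. In mESCs every inhibitor library lay above every control, and in RA-treated cells every inhibitor library lay below every control. The effects were 1.21 in mESCs (adjusted p = 0.0149) and -0.31 in RA-treated cells (adjusted p = 0.361), and the difference was -1.52 (SE 0.34, adjusted p = 0.0229).

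Ddit3 (ENSMUSG00000025408, chr10:127290774-127296288), the transcription factor also called CHOP, stood at 10.5, 13.1 and 11.2 FPKM in mESC_control, 13.8, 16.5 and 17.2 in mESC_OGTi, 76.8, 71.3 and 84.9 in RA_control, and 40.3, 40.5 and 46.2 in RA_OGTi. Inhibitor libraries lay above the controls in mESCs and below them in RA-treated cells. The effects were 0.42 in mESCs (adjusted p = 0.0287) and -0.86 in RA-treated cells (adjusted p = 0.000119), and the difference was -1.28 (SE 0.14, adjusted p = 0.000597). Atf4 (ENSMUSG00000042406, chr15:80255184-80257541), the central factor of the response, had 82.4, 109.9 and 106 FPKM in mESC_control, 133, 136 and 123 in mESC_OGTi, 85.7, 81.5 and 83.9 in RA_control, and 66.3, 60.004 and 73.8 in RA_OGTi. It too was higher with inhibitor in mESCs and lower in RA-treated cells, with effects of 0.40 in mESCs (adjusted p = 0.0344) and -0.33 in RA-treated cells (adjusted p = 0.0283). The difference was -0.73 (SE 0.14, adjusted p = 0.013).

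Trib3, a pseudokinase induced by ATF4, averaged 18.9 ± 1.99 and 28 ± 4.75 FPKM in mESCs without and with inhibitor, and 15 ± 1.64 and 13.2 ± 1.32 FPKM in RA-treated cells (difference -0.70, SE 0.17, adjusted p = 0.0344). Atf3, a stress-induced factor, averaged 1.46 ± 0.0128 and 2.36 ± 0.345 FPKM in mESCs, and 10.4 ± 1.14 and 8.68 ± 0.594 FPKM in RA-treated cells (difference -0.68, SE 0.13, adjusted p = 0.0108). Herpud1, which takes part in the removal of misfolded proteins from the endoplasmic reticulum, averaged 8.49 ± 0.96 and 13.3 ± 1.93 FPKM in mESCs, and 16.1 ± 1.17 and 13.2 ± 0.986 FPKM in RA-treated cells (difference -0.86, SE 0.15, adjusted p = 0.00682). In these 3 genes the rise in mESCs was called, and the effect in RA-treated cells was not. The other 2 called members had their effect in RA-treated cells. Hspa5 (ENSMUSG00000026864, chr2:34771970-34777547), the chaperone BiP of the endoplasmic reticulum, stood at 109, 101 and 95.7 FPKM in mESC_control, 104, 97.5 and 104 in mESC_OGTi, 107, 109.6 and 104 in RA_control, and 72.2, 73.1 and 79.7 in RA_OGTi. The 3 RA_OGTi libraries were below all others, and the difference was -0.51 (SE 0.082, adjusted p = 0.00522). Ddit4, an inhibitor of mTORC1 signalling, fell from 188 ± 12.6 to 95 ± 6.07 FPKM in RA-treated cells and averaged 225 ± 32.8 and 206 ± 45.2 FPKM in mESCs (difference -0.84, SE 0.20, adjusted p = 0.029).

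Atf5, a relative of Atf4, was the member called higher, with 10.4 ± 0.167 and 12.1 ± 0.539 FPKM in mESCs and 13.6 ± 1.17 and 20.4 ± 1.13 FPKM in RA-treated cells (difference 0.35, SE 0.089, adjusted p = 0.0372). The amino acid synthesis and transport genes of the list, Asns, Psat1, Phgdh, Slc7a5 and Slc3a2, were not called. Their differences were 0.14, -0.023, 0.18, 0.032 and -0.033. Calls were lost in 8 of the 12 leave-one-out fits (0.0688 to 0.08) for Trib3, in 7 of the 12 leave-one-out fits (0.0505 to 0.0678) for Ddit4 and in 9 of the 12 leave-one-out fits (0.0623 to 0.0921) for Atf5. Chac1 lost its call without RA_control replicate 1 (0.05001), without mESC_OGTi replicate 1 (0.0512) and without mESC_OGTi replicate 2 (0.053), and with no filter (0.0593). Atf5 was also not called with limma-voom (0.078).

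Short promoter stretches are shown for 4 called members of this list, because the DNA elements of both branches of the response are well known. The C/EBP-ATF response element (CARE, TGATGCAA), bound by ATF4 with a C/EBP partner, and the endoplasmic reticulum stress element (ERSE, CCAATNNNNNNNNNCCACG), bound by ATF6 with NF-Y, were searched on both strands in the 250 bases before each RefSeq gene start (GRCm38.p6). The motifs were chosen with the expression results known. Capitals mark the match, which reads TTGCATCA where the CARE lies in reverse.
Chac1: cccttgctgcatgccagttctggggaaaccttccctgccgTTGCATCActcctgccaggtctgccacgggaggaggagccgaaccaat
Atf3: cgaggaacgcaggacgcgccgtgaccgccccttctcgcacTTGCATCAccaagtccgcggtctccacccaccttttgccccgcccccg
Herpud1: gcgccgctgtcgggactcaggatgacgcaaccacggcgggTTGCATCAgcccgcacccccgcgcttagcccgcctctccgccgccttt
Hspa5: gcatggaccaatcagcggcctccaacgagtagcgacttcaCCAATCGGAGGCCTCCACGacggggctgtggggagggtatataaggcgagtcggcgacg
The stretches lie at chr2:119351009-119351096 on the plus strand (Chac1), chr1:191183396-191183483 on the minus strand (Atf3), chr8:94386277-94386364 on the plus strand (Herpud1) and chr2:34771985-34772083 on the plus strand (Hspa5). The CARE was present in 5 of 25 list members with a promoter sequence and in 0.918% of 27025 genes, and the ERSE in 2 of 25 and in 0.13%. In the 9896 tested genes with a promoter the shares were 0.586% and 0.192%. Among 404 genes called lower they were 1.24% and 0.99%, and among 424 called higher 0.472% and 0%. The list members were chosen for this response, so their share is no test of the motifs. The other CARE matches in the list were in Nupr1 and Vldlr, whose differences were 0.34 (adjusted p = 0.244) and 0.29 (adjusted p = 0.245). The second ERSE match was in Creld2 (difference -0.056, adjusted p = 0.813). RefSeq starts can differ from the deposited gene coordinates, and the Hspa5 stretch lies inside the deposited span of Hspa5. No motif overlapped another in the printed stretches. A match describes letters in the window and does not show binding.

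Genes of cholesterol and fatty acid synthesis gave the most negative list median, with 12 of 22 tested members called lower and 1 higher. The median difference was -0.39, beside 0.0041 over all genes, and 20 of 22 differences lay below 0. In this pathway, low sterol releases SREBP factors, which activate enzymes of sterol synthesis as well as fatty acid desaturases. Insig1 (ENSMUSG00000045294, chr5:28071363-28078662), a sterol-responsive anchor that holds back SREBP processing, had 36.1, 36.7 and 34.3 FPKM in mESC_control, 28.5, 26.5 and 30.3 in mESC_OGTi, 56.9, 49.6 and 54.9 in RA_control, and 22.7, 24.6 and 23.5 in RA_OGTi. It fell in both states without overlap of inhibitor and control libraries. The effects were -0.32 in mESCs and -1.15 in RA-treated cells, a difference of -0.83 (SE 0.088, adjusted p = 0.000464). Scd2 (ENSMUSG00000025203, chr19:44293676-44306864), a stearoyl-CoA desaturase, had 117, 109 and 111 FPKM in mESC_control, 94.8, 95.6 and 107 in mESC_OGTi, 271, 234 and 259.5 in RA_control, and 106, 135 and 110.0 in RA_OGTi. The RA_control libraries stood above all others, and the RA_OGTi libraries overlapped those of mESCs (difference -0.94, SE 0.13, adjusted p = 0.00202).

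Other members differed in how their effects were divided between states. Scd1, the second desaturase, averaged 27.2 ± 0.821 and 29.8 ± 1.62 FPKM in mESCs without and with inhibitor, and 70.2 ± 2.37 and 43 ± 4.54 FPKM in RA-treated cells (difference -0.83, SE 0.10, adjusted p = 0.000842). Dhcr7 (ENSMUSG00000058454, chr7:143823145-143848410), which makes cholesterol from its immediate precursor, stood at 19.2, 19.3 and 20.5 FPKM in mESC_control, 23.3, 25.7 and 26.9 in mESC_OGTi, 34.8, 29.95 and 34.3 in RA_control, and 20.9, 24.6 and 25.5 in RA_OGTi. It was raised by the inhibitor in mESCs and lowered in RA-treated cells, without overlap in either, and the difference was -0.82 (SE 0.12, adjusted p = 0.00283). Fads1, a fatty acid desaturase, had called effects of 0.22 and -0.18 (difference -0.40, SE 0.079, adjusted p = 0.0142). Fads2, which acts before it in the synthesis of polyunsaturated fatty acids, rose in mESCs from 29.9 ± 2.78 to 48.7 ± 4.19 FPKM and averaged 47 ± 4.55 and 48.9 ± 2.88 FPKM in RA-treated cells (difference -0.63, SE 0.13, adjusted p = 0.0146).

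For 4 further genes of sterol synthesis and its regulation, the fall was called in RA-treated cells only. Differences were -0.60 for Hmgcs1, -0.54 for Cyp51, -0.49 for Srebf2 and -0.33 for Sqle (adjusted p = 0.00842, 0.00569, 0.0105 and 0.0269). Cyp51, the sterol demethylase, averaged 21.5 ± 1.09 and 22.7 ± 1.7 FPKM in mESCs and 19.8 ± 1.36 and 14.1 ± 0.144 FPKM in RA-treated cells. Srebf2 encodes the SREBP factor of sterol genes. Fasn, the fatty acid synthase, did not pass (difference -0.22, adjusted p = 0.2). The call of Sqle was lost in 6 of the 12 leave-one-out fits (0.0543 to 0.0704).

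**Figure D2:**
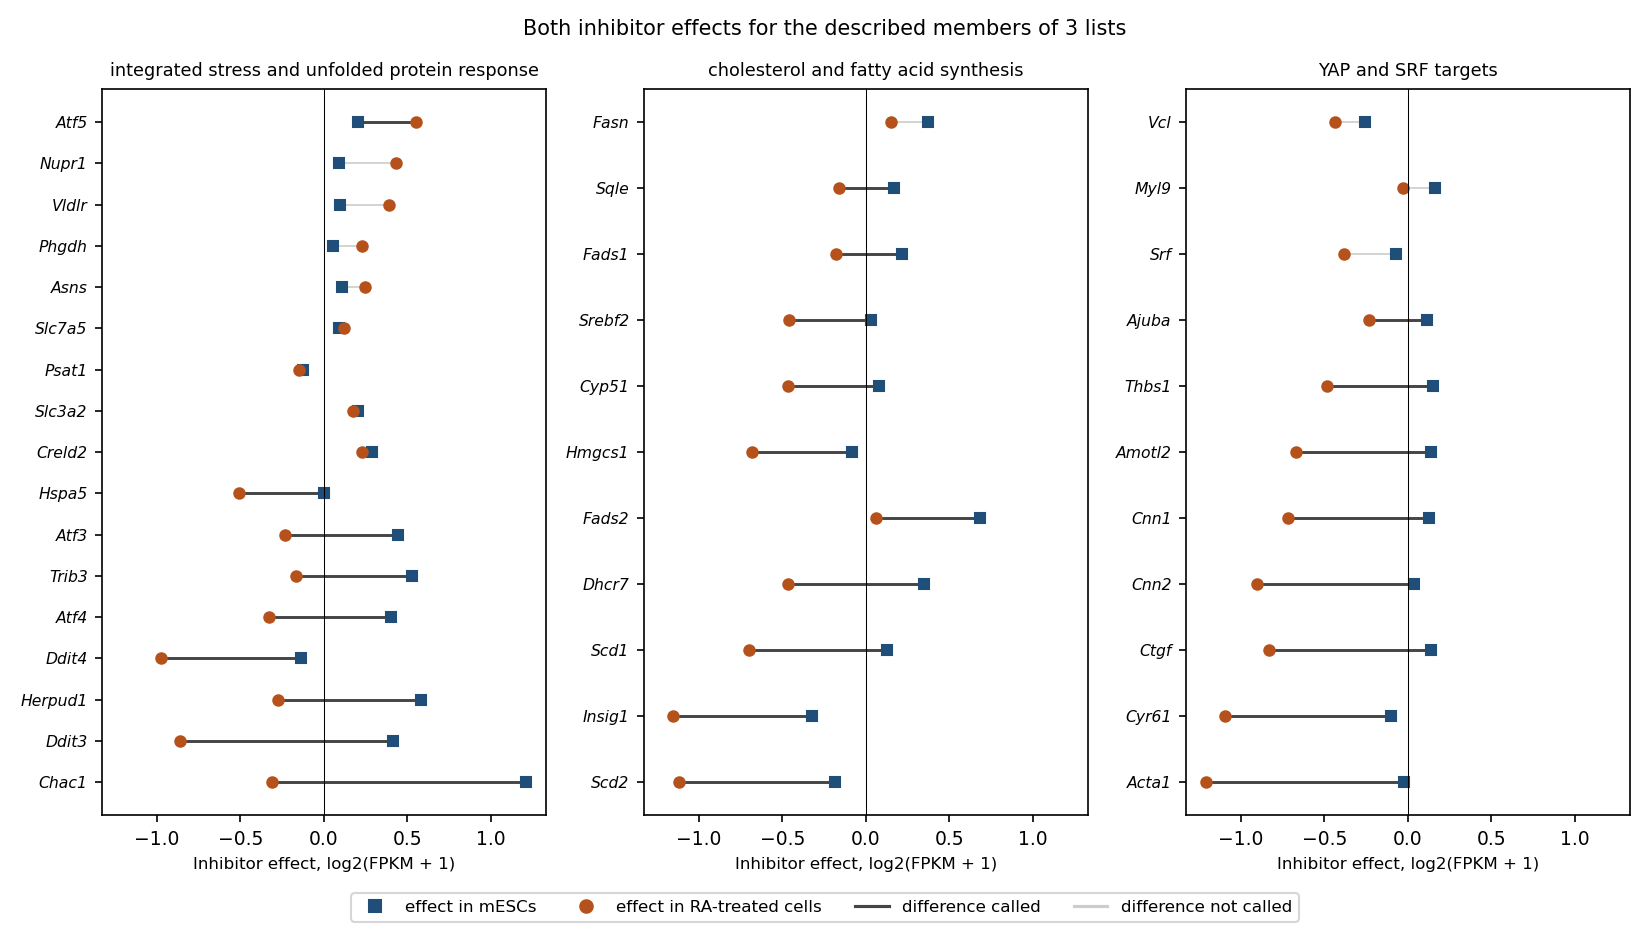
Inhibitor effect on log2(FPKM + 1) in mESCs (blue squares) and in RA-treated cells (orange circles) for the members of 3 lists that the text describes, ordered by the difference, with a dark line where the difference was called and a light line where it was not. Chac1 runs from 1.21 in mESCs to -0.31 in RA-treated cells, and for every lipid and cytoskeletal gene shown the circle lies to the left of the square.

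Several keratin and junction genes were lowered by the inhibitor in RA-treated cells, with a more negative effect than in mESCs. Of 20 tested members of the trophoblast and simple epithelium list, 7 were called lower and 1 higher, with a median difference of -0.28. The members called lower encode intermediate filaments and junction proteins, not trophoblast regulators. Krt8 (ENSMUSG00000049382, chr15:101996698-102004482), the type II keratin of simple epithelia, had 36.1, 34.7 and 37.1 FPKM in mESC_control, 29.7, 37.3 and 36.6 in mESC_OGTi, 138, 113 and 149 in RA_control, and 47.4, 45.2 and 48.5 in RA_OGTi. RA_control libraries stood far above the rest, and the RA_OGTi libraries above the mESC libraries. The difference was -1.41 (SE 0.14, adjusted p = 0.000433). Krt18, its filament partner, averaged 31 ± 2.12 and 32.4 ± 2.86 FPKM in mESCs, and 169 ± 23.7 and 83 ± 4.75 FPKM in RA-treated cells (difference -1.07, SE 0.14, adjusted p = 0.00143). Krt19 fell in both states, with effects of -0.46 in mESCs and -1.17 in RA-treated cells (difference -0.71, SE 0.13, adjusted p = 0.00992).

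Several claudins, which seal tight junctions, followed, while Cldn3, Epcam, Dsp and Pkp2 of the same list were not called. Cldn7 (ENSMUSG00000018569, chr11:69964779-69967885) had 15.3, 15.5 and 16.1 FPKM in mESC_control, 15.9, 16 and 16.1 in mESC_OGTi, 10.5, 9.53 and 11.9 in RA_control, and 3.84, 4.58 and 5.38 in RA_OGTi. Unlike the keratins it was lower in RA_control than in mESCs, and lowest in RA_OGTi (difference -1.10, SE 0.13, adjusted p = 0.000997). Cldn4 averaged 68.1 ± 4.97 and 75.4 ± 7.46 FPKM in mESCs and 53 ± 3.7 and 30.9 ± 1.04 FPKM in RA-treated cells (difference -0.90, SE 0.11, adjusted p = 0.0012). Cldn6 had 47.5 ± 2.09 and 48.5 ± 4.61 FPKM in mESCs and 62.9 ± 4.48 and 37.2 ± 3.36 FPKM in RA-treated cells (difference -0.77, SE 0.12, adjusted p = 0.00347). Cdh1, the adhesion protein E-cadherin, rose in mESCs from 123 ± 7.84 to 148 ± 5.27 FPKM and fell in RA-treated cells from 84.2 ± 2.29 to 72.4 ± 1.59 FPKM (difference -0.48, SE 0.073, adjusted p = 0.00357). Hand1, a trophoblast and mesoderm factor, was the member called higher (difference 0.72, SE 0.18, adjusted p = 0.0364), a call lost in 9 of the 12 leave-one-out fits (0.0547 to 0.0823). The summed trophoblast markers, given above, were 3.89 to 5.26 FPKM in RA_control and 5.21 to 5.88 FPKM in RA_OGTi, and their part in these results was not tested.

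Targets of YAP and SRF, which respond to cell shape and actin assembly, were lowered by the inhibitor mainly in RA-treated cells. Of 19 tested members 8 were called, each lower, and 18 of 19 differences lay below 0 (median -0.31). Acta1 (ENSMUSG00000031972, chr8:123891769-123894751), skeletal muscle actin, had 0.662, 0.692 and 0.738 FPKM in mESC_control, 0.378, 0.844 and 0.835 in mESC_OGTi, 36.5, 31.6 and 40.4 in RA_control, and 14.5, 14.7 and 15.9 in RA_OGTi. It was under 1 FPKM in mESCs, high in RA_control and intermediate in RA_OGTi (difference -1.18, SE 0.16, adjusted p = 0.00201). Cyr61 (ENSMUSG00000028195, chr3:145646976-145649981), a secreted matricellular protein and YAP target, had 4.35, 5.89 and 6.83 FPKM in mESC_control, 4.73, 5.2 and 5.59 in mESC_OGTi, 149, 136 and 159 in RA_control, and 70.3, 67 and 69 in RA_OGTi. Inhibitor and control libraries overlapped in mESCs and were well apart in RA-treated cells (difference -0.99, SE 0.16, adjusted p = 0.00554). Ctgf, its relative, averaged 5.26 ± 0.868 and 5.84 ± 0.207 FPKM in mESCs and 112 ± 9.28 and 62.1 ± 4.02 FPKM in RA-treated cells (difference -0.97, SE 0.13, adjusted p = 0.00237). Amotl2, a junction protein that restrains YAP and is itself a YAP target, averaged 12.1 ± 0.827 and 13.5 ± 0.974 FPKM in mESCs and 87.4 ± 2.22 and 54.6 ± 1.23 FPKM in RA-treated cells (difference -0.81, SE 0.083, adjusted p = 0.000436).

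The actin-binding calponins Cnn2 and Cnn1 had differences of -0.94 (SE 0.12, adjusted p = 0.00118) and -0.84 (SE 0.15, adjusted p = 0.00876). Thbs1, the matrix protein thrombospondin, had a difference of -0.64 (SE 0.11, adjusted p = 0.0075), and Ajuba, a LIM protein of junctions, of -0.35 (SE 0.077, adjusted p = 0.0208). Vcl, the SRF target vinculin, was not called (difference -0.18, adjusted p = 0.0844), nor was Srf itself (-0.31, adjusted p = 0.0654). Acta1, near 0 in mESCs, lost its call with limma-voom on recovered fragments (0.128), and Ajuba without mESC_OGTi replicate 2 (0.0514) and without mESC_control replicate 2 (0.0504).

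Promoter stretches of Acta1 and Cnn2 are shown for the CArG box, the element bound by SRF, whose degenerate consensus is symmetric, so that each match is found on both strands. Capitals mark the box.
Acta1: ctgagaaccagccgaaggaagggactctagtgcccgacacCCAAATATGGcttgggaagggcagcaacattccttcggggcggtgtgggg
Cnn2: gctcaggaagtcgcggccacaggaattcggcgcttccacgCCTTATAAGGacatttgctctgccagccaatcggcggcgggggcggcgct
They lie at chr8:123894799-123894888 on the minus strand (Acta1) and chr10:79988504-79988593 on the plus strand (Cnn2) in GRCm38.p6. A CArG box was present in 5 of 16 list members with a RefSeq promoter and in 1.62% of 27025 genes. Its share was 1.35% of 9896 tested genes with a promoter, 2.48% of those called lower and 0.943% of those called higher. The 3 other members were Myl9, Srf and Vcl, none of them called.

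**Figure D3:**
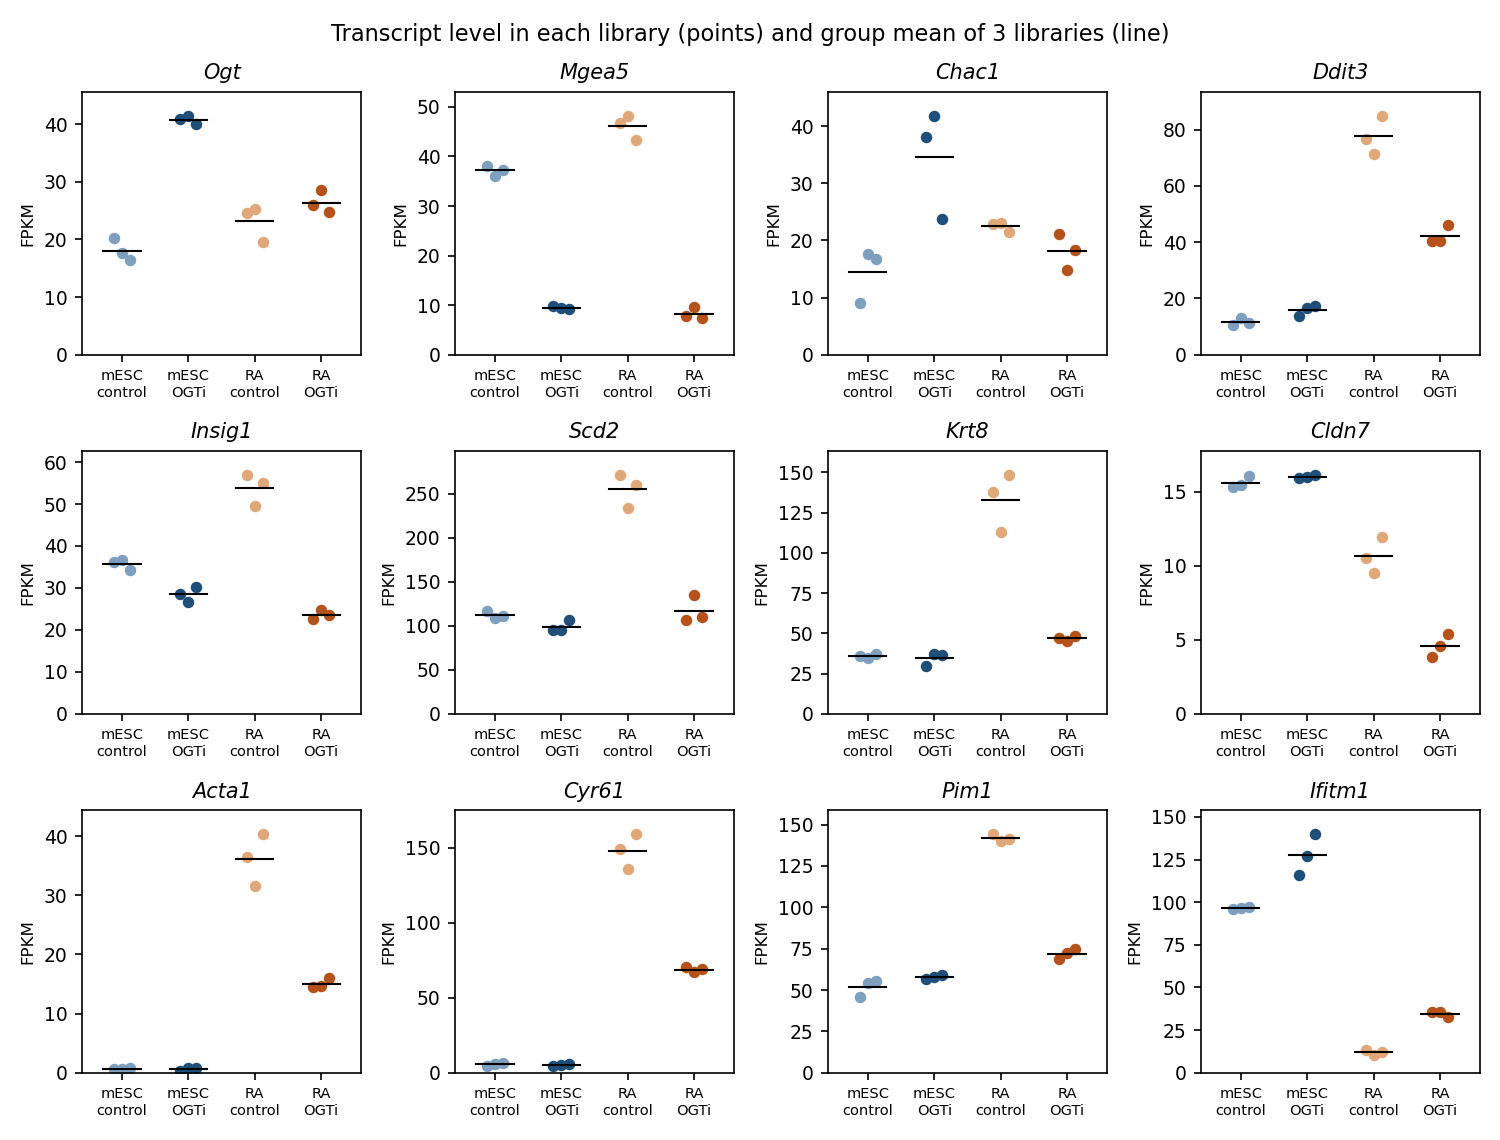
FPKM in each library (points) and the mean of 3 libraries (line) for 12 genes, by group. Ogt stands out in mESC_OGTi, Mgea5 is low in both inhibitor groups, and Krt8, Acta1, Cyr61, Scd2, Ddit3 and Pim1 peak in RA_control and are lower in RA_OGTi, whereas Ifitm1 is lowest in RA_control.

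Some RA-responsive genes had a more positive inhibitor effect in RA-treated cells than in mESCs, but these calls depended on single libraries. Of 20 tested members of the RA response list 5 were called higher and 1 lower, with a median difference of 0.17. Cyp26a1 (ENSMUSG00000024987, chr19:37697808-37701528), which breaks down RA, had 0.323, 0.337 and 0.213 FPKM in mESC_control, 0.182, 0.269 and 0.578 in mESC_OGTi, 137, 124 and 141 in RA_control, and 212, 194 and 209 in RA_OGTi. It was near 0 in mESCs and higher in every RA_OGTi than in every RA_control library, with a difference of 0.56 (SE 0.14, adjusted p = 0.0303). Dhrs3, a retinaldehyde reductase, averaged 0.913 ± 0.109 and 1.23 ± 0.151 FPKM in mESCs and 5.44 ± 0.198 and 9.42 ± 1.16 FPKM in RA-treated cells (difference 0.47, SE 0.12, adjusted p = 0.0396). Stra8, a gene of meiotic entry named for its induction by RA, averaged 43.5 ± 2.04 and 46.1 ± 3.24 FPKM in mESCs and 546 ± 14.2 and 719 ± 14.2 FPKM in RA-treated cells (difference 0.32, SE 0.079, adjusted p = 0.0344). Cdx1, a homeobox factor of posterior identity, and the receptor gene Rara had differences of 0.50 (SE 0.14, adjusted p = 0.0496) and 0.38 (SE 0.10, adjusted p = 0.0485).

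Rxra, the common partner of RA receptors, was called lower, with a rise in mESCs from 7.08 ± 0.379 to 8.6 ± 0.336 FPKM and 13 ± 0.293 and 11.9 ± 0.416 FPKM in RA-treated cells (difference -0.37, SE 0.071, adjusted p = 0.0126). Rarb, a direct RA target, was not called (0.37, SE 0.16, adjusted p = 0.184), nor were Crabp2 and Cyp26b1 (-0.29 and -0.35, adjusted p = 0.317 and 0.0702). Between 0 and 3 members of the list were called higher when 1 library was left out. Dhrs3 was not called with limma-voom (0.447) or a pseudocount of 0.1 (0.212), nor was Cyp26a1 with that pseudocount (0.432). Calls were lost in 8 of the 12 leave-one-out fits (0.0571 to 0.0749) for Cyp26a1, in 11 of the 12 leave-one-out fits (0.0532 to 0.0852) for Dhrs3, in 9 of the 12 leave-one-out fits (0.0502 to 0.0834) for Stra8, in 10 of the 12 leave-one-out fits (0.055 to 0.108) for Cdx1 and in 10 of the 12 leave-one-out fits (0.0664 to 0.111) for Rara, and limma-voom gave Cyp26a1 an adjusted p of 0.642.

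The promoters of Cyp26a1 and Rarb hold a DR5 element, the paired half-site bound by RA receptors with RXR, and are shown because RA acts on both genes through such elements. Capitals mark the element.
Cyp26a1: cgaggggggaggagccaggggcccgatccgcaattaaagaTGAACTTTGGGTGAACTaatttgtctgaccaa
Rarb: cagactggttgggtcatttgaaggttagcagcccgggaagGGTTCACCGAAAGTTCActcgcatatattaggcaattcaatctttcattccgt
They lie at chr19:37697736-37697807 on the plus strand (Cyp26a1) and chr14:16575477-16575569 on the minus strand (Rarb) in GRCm38.p6. The element was found in 2 of 15 list members with a promoter sequence and in 0.104% of 27025 genes. Of 9896 tested genes with a promoter, 3 held it.

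Among 24 tested Hox genes, 1 was called in each direction (median difference 0.047). The called share was 8.33%, beside 7.69% of all genes. Hoxb1 (ENSMUSG00000018973, chr11:96365752-96368256), an early RA target of the hindbrain, had 0.0548, 0 and 0 FPKM in mESC_control, 0, 0.0882 and 0 in mESC_OGTi, 62.1, 62.7 and 51.7 in RA_control, and 37.8, 37.2 and 33.3 in RA_OGTi. It was at or near 0 in mESCs, and RA_OGTi libraries were below RA_control libraries (difference -0.70, SE 0.11, adjusted p = 0.00517). Hoxd9 averaged 1.87 ± 0.181 and 3.93 ± 0.226 FPKM in RA-treated cells without and with inhibitor, and under 1 FPKM in mESCs (difference 0.67, SE 0.13, adjusted p = 0.0105). Hoxb1 lost its call with limma-voom on recovered fragments (0.752) and pseudocount 0.1 (0.197), and Hoxd9 with TPM scaling (0.0516), limma-voom on recovered fragments (0.772) and pseudocount 0.1 (0.411).

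**Figure D4:**
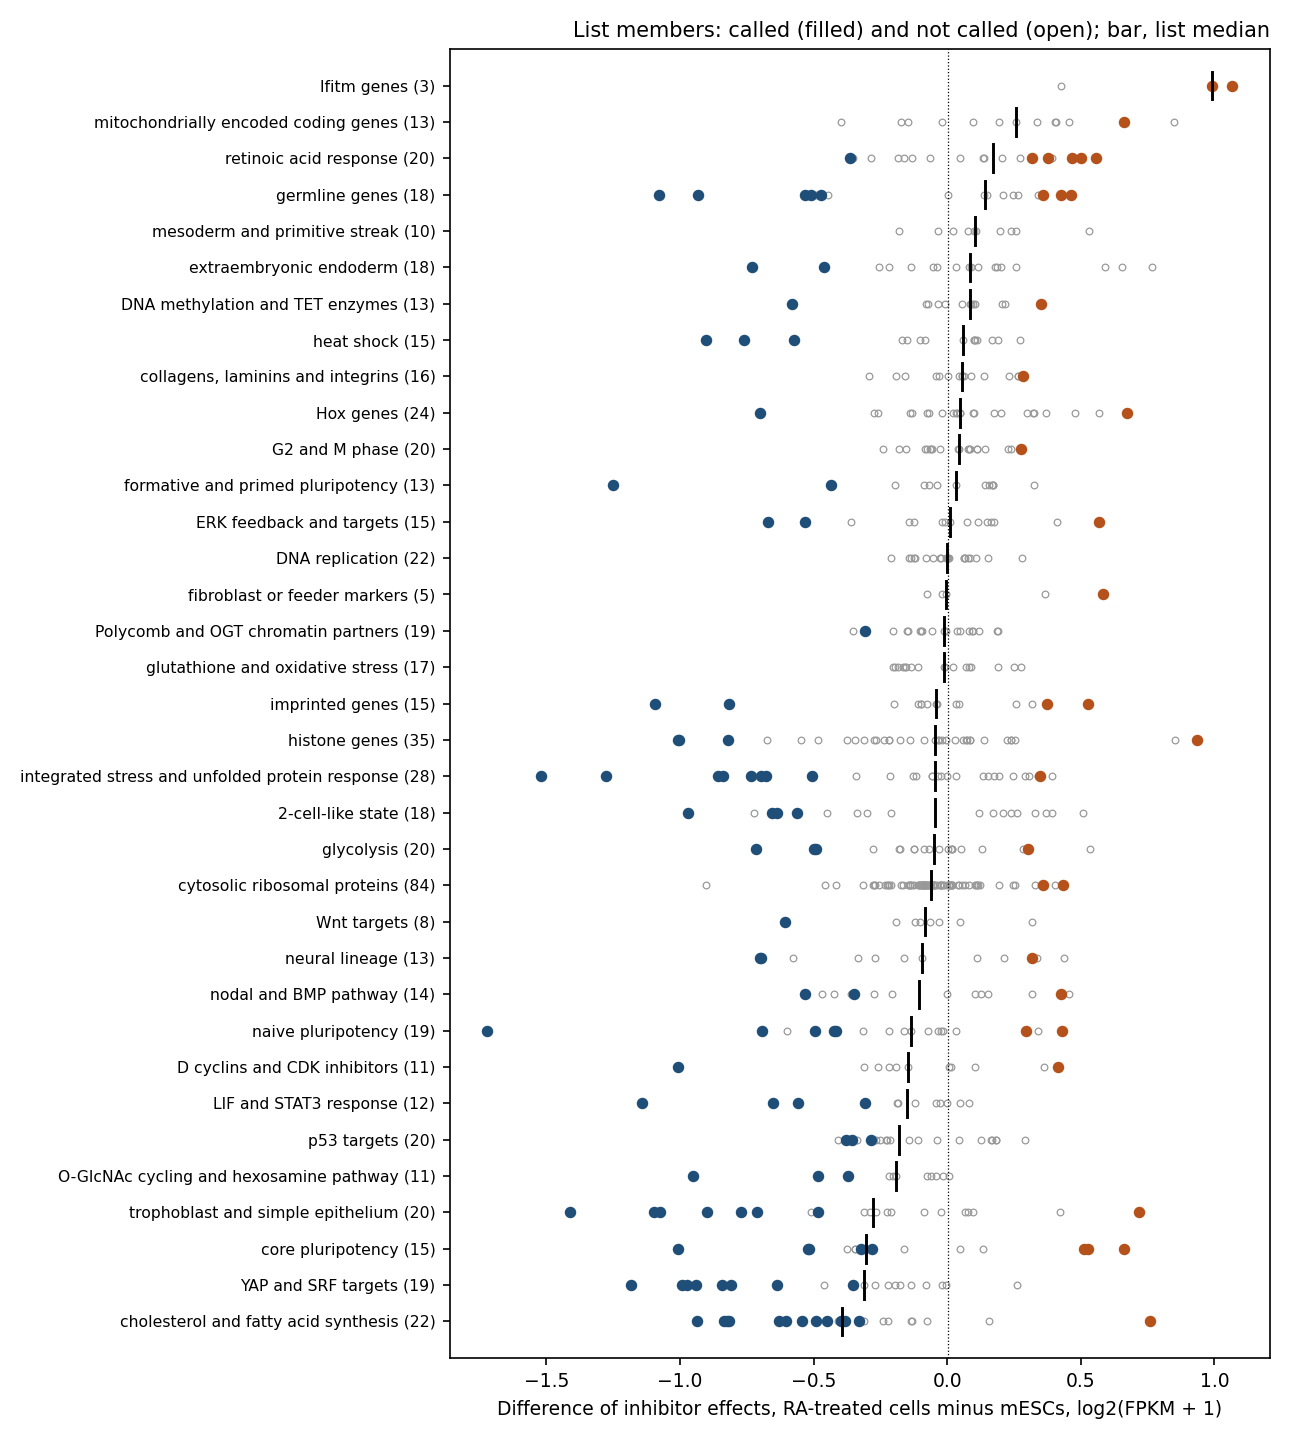
Difference of inhibitor effects on log2(FPKM + 1), RA-treated cells minus mESCs, for the tested members of each of the 35 lists, with the number tested in parentheses. Filled points were called, open points were not, and bars mark list medians, which run from -0.39 for cholesterol and fatty acid synthesis to 0.99 for 3 Ifitm genes.

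Pluripotency genes split. Of 15 tested core pluripotency genes 5 were called lower and 3 higher, with a median difference of -0.30. Tdgf1 (ENSMUSG00000032494, chr9:110939603-110946158), a co-receptor for nodal, had 668, 665 and 624 FPKM in mESC_control, 488, 471 and 531 in mESC_OGTi, 11.1, 9.55 and 10.9 in RA_control, and 3.43, 3.65 and 3.02 in RA_OGTi. It was lower with inhibitor in both states without overlap, with effects of -0.39 in mESCs and -1.40 in RA-treated cells (difference -1.01, SE 0.10, adjusted p = 0.000409). Nanog (ENSMUSG00000012396, chr6:122707489-122714633) had 303, 290.3 and 272 FPKM in mESC_control, 289, 291 and 299.8 in mESC_OGTi, 35.5, 36.1 and 39.7 in RA_control, and 26.7, 26.1 and 25.2 in RA_OGTi. The groups overlapped in mESCs and were apart in RA-treated cells (difference -0.52, SE 0.077, adjusted p = 0.00327). Fgf4 averaged 94.7 ± 6.27 and 111 ± 9.78 FPKM in mESCs and 12.1 ± 1.06 and 9.62 ± 0.429 FPKM in RA-treated cells (difference -0.52, SE 0.11, adjusted p = 0.0175). Sox2 had a difference of -0.32 (SE 0.072, adjusted p = 0.0215) and the RNA-binding protein gene Lin28a of -0.28 (SE 0.065, adjusted p = 0.0252). Pou5f1, which encodes OCT4, averaged 757 ± 10.1 and 744 ± 37.2 FPKM in mESCs and 173 ± 18.9 and 133 ± 9.92 FPKM in RA-treated cells and did not pass (-0.35, SE 0.11, adjusted p = 0.0895).

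Gdf3, Dppa2 and L1td1 were called higher. Gdf3, a TGF-beta family ligand, averaged 20.6 ± 0.321 and 21.4 ± 1.28 FPKM in mESCs and 2.18 ± 0.353 and 4.23 ± 0.607 FPKM in RA-treated cells (difference 0.66, SE 0.13, adjusted p = 0.0141). For Dppa2, a chromatin protein of early embryos, and L1td1, an RNA-binding protein, the inhibitor lowered the transcript in mESCs, and the effect in RA-treated cells was not called (differences 0.53, SE 0.10, adjusted p = 0.012 and 0.51, SE 0.12, adjusted p = 0.0259). Calls were lost without RA_OGTi replicate 1 (0.0581), without mESC_OGTi replicate 2 (0.0544) and without mESC_control replicate 2 (0.0532) and under TPM scaling (0.119) for Sox2, in 6 of the 12 leave-one-out fits (0.0506 to 0.0632) for Lin28a and in 5 of the 12 leave-one-out fits (0.0568 to 0.0661) for L1td1.

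Of 19 naive pluripotency genes 5 were called lower and 2 higher (median difference -0.14). Dppa3 (ENSMUSG00000046323, chr6:122626410-122630272), a maternal factor that protects DNA methylation in the zygote, had the most negative difference among called protein-coding genes that reached a mean of 5 FPKM in a group. Its level was 2.71, 3.2 and 2.33 FPKM in mESC_control, 4.34, 3.21 and 3.31 in mESC_OGTi, 4.92, 6.18 and 6.49 in RA_control, and 1.64, 1.86 and 1.2 in RA_OGTi. The RA_OGTi libraries were the lowest of all 12, and RA_control the highest (difference -1.72, SE 0.19, adjusted p = 0.000644). Klf2, a naive factor, averaged 270.3 ± 29.5 and 325 ± 13.5 FPKM in mESCs and 187 ± 11.5 and 139.6 ± 8.77 FPKM in RA-treated cells (difference -0.69, SE 0.12, adjusted p = 0.0062). Tfcp2l1 and Tbx3, LIF-sustained factors, rose in mESCs by 0.34 and 0.22, with effects of -0.16 and -0.20 in RA-treated cells (differences -0.49, SE 0.086, adjusted p = 0.0075 and -0.42, SE 0.073, adjusted p = 0.00761). Fbxo15, an F-box protein, was also called lower (-0.42, SE 0.091, adjusted p = 0.0195), except without RA_OGTi replicate 1 (0.053). Gbx2, a homeobox factor, fell more in mESCs, from 12.7 ± 0.494 to 7.06 ± 0.314 FPKM, than in RA-treated cells, from 9.88 ± 0.862 to 7.61 ± 0.301 FPKM (difference 0.43, SE 0.089, adjusted p = 0.0163). Esrrb was called higher (0.30, SE 0.078, adjusted p = 0.0422), a call lost in 11 of the 12 leave-one-out fits (0.0569 to 0.0933), and Zfp42 was not called (-0.14, SE 0.069, adjusted p = 0.259). The mESC marker sums given above were 283 to 318 FPKM in RA_control and 233 to 250.3 FPKM in RA_OGTi.

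LIF and STAT3 response genes were called lower in 4 of 12 tested members, each in the same direction (median difference -0.15). Pim1 (ENSMUSG00000024014, chr17:29490812-29496111), a STAT3-induced kinase, had 45.9, 54 and 55.2 FPKM in mESC_control, 57, 58.1 and 59.2 in mESC_OGTi, 144, 140.1 and 141 in RA_control, and 68.7, 72.3 and 74.7 in RA_OGTi. RA_control libraries stood above the rest, and inhibitor libraries were above controls in mESCs (difference -1.14, SE 0.089, adjusted p = 0.000102). Pim3, a related kinase, averaged 164 ± 5.25 and 162 ± 4.9 FPKM in mESCs and 122 ± 13.3 and 76.6 ± 4.03 FPKM in RA-treated cells (difference -0.65, SE 0.10, adjusted p = 0.0047). Socs3 (ENSMUSG00000053113, chr11:117966079-117970047), the feedback inhibitor of LIF signalling, had 151, 158 and 149 FPKM in mESC_control, 125, 138 and 145 in mESC_OGTi, 14.6, 12.8 and 13.9 in RA_control, and 7.44, 8.18 and 8.19 in RA_OGTi. It was already low in RA_control and lower in RA_OGTi (difference -0.56, SE 0.091, adjusted p = 0.00549). Stat3 rose in mESCs from 20.05 ± 0.641 to 23.1 ± 1.08 FPKM and averaged 16.6 ± 0.504 and 15.3 ± 0.341 FPKM in RA-treated cells (difference -0.31, SE 0.065, adjusted p = 0.0184). Stat3 lost its call under TPM scaling (0.0765). In the leave-one-out fits all 4 kept theirs.

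Genes downstream of ERK and other kinase pathways were divided. Etv4 (ENSMUSG00000017724, chr11:101769742-101785371), an ETS factor counted in the formative list, had 85.4, 85.1 and 88.3 FPKM in mESC_control, 50.4, 51.6 and 49.9 in mESC_OGTi, 8.97, 10.1 and 10.5 in RA_control, and 1.68, 1.65 and 1.74 in RA_OGTi. It was lower with inhibitor in both states without overlap, with effects of -0.76 in mESCs and -2.01 in RA-treated cells (difference -1.25, SE 0.072, adjusted p = 2.78e-05). Etv5, its relative, had a difference of -0.44 (SE 0.082, adjusted p = 0.011). These were the 2 called members of 13 tested in that list (15.4%, beside 7.69% of all genes). Dusp1 (ENSMUSG00000024190, chr17:26505590-26508519), a phosphatase of stress kinases induced by many stimuli, had 44.4, 43.7 and 44 FPKM in mESC_control, 33.5, 38.4 and 36.3 in mESC_OGTi, 53.8, 54.5 and 60.3 in RA_control, and 16.1, 16.9 and 19.2 in RA_OGTi. The RA_OGTi libraries were the lowest and RA_control the highest (difference -1.36, SE 0.10, adjusted p = 8.98e-05). Of 15 tested ERK feedback genes, Dusp4 (-0.67, SE 0.11, adjusted p = 0.00549) and Fos (-0.53, SE 0.14, adjusted p = 0.0375) were called lower and Dusp5 (0.57, SE 0.15, adjusted p = 0.0383) higher. Spry4, a feedback inhibitor of the pathway, fell in both states, with effects of -0.83 in mESCs and -0.76 in RA-treated cells. Its difference was 0.073 (SE 0.13, adjusted p = 0.784). The 3 calls were 20% of the ERK feedback list. Fos lost its call in 9 of the 12 leave-one-out fits (0.05003 to 0.0848) and Dusp5 in 10 of the 12 leave-one-out fits (0.0591 to 0.0896).

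In the nodal and BMP list, Id1, a BMP target, averaged 154 ± 8.51 and 134 ± 3.2 FPKM in mESCs and 588 ± 32.5 and 355 ± 22.1 FPKM in RA-treated cells (difference -0.53, SE 0.088, adjusted p = 0.00589). Acvr2b, an activin receptor, was also called lower (-0.35, SE 0.088, adjusted p = 0.0339), a call lost in 8 of the 12 leave-one-out fits (0.0551 to 0.0748). Smad7, an inhibitor of TGF-beta signalling, fell in mESCs from 29.4 ± 1.55 to 22.9 ± 0.0275 FPKM, and its effect in RA-treated cells was not called (difference 0.43, SE 0.062, adjusted p = 0.00315). These were 3 of 14 tested (21.4%, beside 7.69% of all genes). Ccnd1, which encodes cyclin D1, was the only called member of 8 tested Wnt targets (12.5%), lower at -0.61 (SE 0.11, adjusted p = 0.00867).

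Among 18 tested germline genes 5 were called lower and 3 higher (median difference 0.14). Sycp3 (ENSMUSG00000020059, chr10:88459569-88473236), a part of the meiotic chromosome axis, had 6.24, 6.78 and 5.63 FPKM in mESC_control, 3.78, 4.91 and 3.55 in mESC_OGTi, 12, 11.8 and 9.51 in RA_control, and 3.24, 3.72 and 3.3 in RA_OGTi. It fell in both states without overlap, and more in RA-treated cells (difference -0.93, SE 0.16, adjusted p = 0.0063). Piwil2 and Mov10l1, of the piRNA pathway, and the RNA helicase gene Ddx4 fell in both states, with differences of -0.53 (SE 0.071, adjusted p = 0.00196), -0.51 (SE 0.059, adjusted p = 0.000814) and -0.47 (SE 0.10, adjusted p = 0.0186). Tex101 fell from 2.83 ± 0.263 to 0.425 ± 0.388 FPKM in RA-treated cells (difference -1.08, SE 0.22, adjusted p = 0.0154). Tex11, a meiotic gene of the X chromosome, went the other way, with a larger fall in mESCs (-0.85) than in RA-treated cells (-0.38, difference 0.47, SE 0.11, adjusted p = 0.0261). Taf7l and Rpl10l were called higher at 0.43 (SE 0.12, adjusted p = 0.0483) and 0.36 (SE 0.088, adjusted p = 0.031). Ddx4 lost its call under TPM scaling (0.0717), Tex101 with limma-voom on recovered fragments (0.116) and pseudocount 0.1 (0.122), and the 3 higher calls were lost in 6 of the 12 leave-one-out fits (0.0506 to 0.0629), in 9 of the 12 leave-one-out fits (0.0688 to 0.102) and in 9 of the 12 leave-one-out fits (0.0533 to 0.0728).

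In the imprinted list (15 tested, 2 called in each direction), Nnat (ENSMUSG00000067786, chr2:157560078-157562522), a paternally expressed neural proteolipid, had 16.2, 13.5 and 13.3 FPKM in mESC_control, 20.5, 22.2 and 24.5 in mESC_OGTi, 83.9, 72.2 and 80.7 in RA_control, and 53.9, 56.5 and 57.7 in RA_OGTi. The inhibitor libraries lay above controls in mESCs and below them in RA-treated cells (difference -1.09, SE 0.12, adjusted p = 0.000597). Peg10, a retrotransposon-derived placental gene, fell in both states, with effects of -0.45 in mESCs and -1.27 in RA-treated cells (difference -0.82, SE 0.11, adjusted p = 0.00164). H19 and Grb10 were called higher (0.53, SE 0.14, adjusted p = 0.044 and 0.38, SE 0.10, adjusted p = 0.0408), calls lost in 10 of the 12 leave-one-out fits (0.0544 to 0.0939) and in 9 of the 12 leave-one-out fits (0.0501 to 0.0921). Cdkn1c (ENSMUSG00000037664, chr7:143458339-143461050), an imprinted inhibitor of cyclin-dependent kinases held in the list of D cyclins and their inhibitors, had 8.36, 9.68 and 9.94 FPKM in mESC_control, 9.03, 9.4 and 8.58 in mESC_OGTi, 34, 32.4 and 38.7 in RA_control, and 16.7, 15.7 and 16.7 in RA_OGTi. The inhibitor and control libraries overlapped in mESCs and were apart in RA-treated cells (difference -1.01, SE 0.11, adjusted p = 0.000436). Of the 11 tested genes of that list, Cdkn2a was called higher (0.41, SE 0.11, adjusted p = 0.0461), a call lost in 10 of the 12 leave-one-out fits (0.0556 to 0.0956). The called share was 26.7% of the imprinted list and 18.2% of the cyclin and inhibitor list, beside 7.69% of all genes.

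Of 18 tested genes of the 2-cell-like state 4 were called (22.2%, beside 7.69% of all genes), each lower. Usp17le averaged 30.4 ± 2.11 and 16.8 ± 0.846 FPKM in RA-treated cells (difference -0.56, SE 0.083, adjusted p = 0.0033), and Tdpoz4, Usp17lb and Usp17ld had differences of -0.97, -0.66 and -0.63 (adjusted p = 0.0195, 0.0469 and 0.0332). These belong to families of near-identical copies, so their values are uncertain. Usp17lb lost its call in 10 of the 12 leave-one-out fits (0.051 to 0.105), and Usp17ld in 9 of the 12 leave-one-out fits (0.0526 to 0.0773). Limma-voom called 0 of the 18, beside 11 at an unadjusted p under 0.05 in limma.

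Interferon-induced membrane genes were raised more in RA-treated cells. Of 3 tested Ifitm genes 2 were called higher, and their copies are similar enough that reads may be shared. Ifitm1 (ENSMUSG00000025491, chr7:140967221-140969825) had 95.8, 96.5 and 97.3 FPKM in mESC_control, 116, 127 and 140.0 in mESC_OGTi, 13.5, 10.3 and 12 in RA_control, and 35.5, 35.3 and 32.5 in RA_OGTi. Inhibitor libraries lay above controls in both states, with effects of 0.40 and 1.46 (difference 1.07, SE 0.12, adjusted p = 0.000814). Ifitm3 averaged 17.3 ± 1.06 and 24.1 ± 0.887 FPKM in mESCs and 7.43 ± 0.751 and 22 ± 2.02 FPKM in RA-treated cells (difference 0.99, SE 0.11, adjusted p = 0.000693), and Ifitm2 was not called (0.42, SE 0.14, adjusted p = 0.0878).

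Of 13 mitochondrially encoded genes 1 was called, higher, and the median difference was 0.26. The called share was 7.69%, as over all genes. Limma-voom called 5 of them higher, 6 were higher at an unadjusted p under 0.05 in limma, and 1 to 4 were called higher in the leave-one-out fits. mt-Nd2, a subunit of complex I, averaged 512 ± 40.8 and 395 ± 24.6 FPKM in mESCs and 171 ± 14.5 and 209 ± 5.8 FPKM in RA-treated cells (difference 0.66, SE 0.11, adjusted p = 0.0052). It fell in mESCs and rose in RA-treated cells. Mitochondrial genes held 0.795% to 0.845% of fragments in mESC_control, 0.614% to 0.741% in mESC_OGTi, 0.723% to 0.828% in RA_control and 0.617% to 0.701% in RA_OGTi. The part of RNA quality in these values was not tested.

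Some heat shock and glucose transport genes had a more negative inhibitor effect in RA-treated cells than in mESCs. Of 15 heat shock genes, the effect in RA-treated cells was called up for 4 and down for 4. The median difference was 0.058, with 8 differences above 0. The difference was called for 3 of the 15 (20%, beside 7.69% of all genes), each lower. They were Hspa1a (-0.90, SE 0.17, adjusted p = 0.0118) and Hspa1b (-0.76, SE 0.17, adjusted p = 0.0231), near-identical copies of the inducible chaperone whose values are uncertain, and Hspb1, a small heat shock protein (-0.58, SE 0.10, adjusted p = 0.00842). In the glycolysis list 3 of 20 were called lower and 1 higher (20% called). Slc2a3, a neuronal-type glucose transporter, averaged 425 ± 7.71 and 461 ± 40.2 FPKM in mESCs and 378 ± 25.8 and 291 ± 14.8 FPKM in RA-treated cells (difference -0.49, SE 0.10, adjusted p = 0.0175). Slc2a1, the widespread glucose transporter, and the aldolase gene Aldoc were also lower (-0.50, SE 0.14, adjusted p = 0.0492 and -0.72, SE 0.16, adjusted p = 0.0244), and Pdk1 was higher (0.30, SE 0.082, adjusted p = 0.0466). Of 20 p53 targets 3 were called (15%, beside 7.69% of all genes), each lower. They were Bbc3 (-0.38), Eda2r (-0.36) and Ei24 (-0.29), with adjusted p = 0.0286, 0.0326 and 0.0243. Calls were lost in 4 of the 12 leave-one-out fits (0.0503 to 0.0554) for Hspa1b, in 10 of the 12 leave-one-out fits (0.05001 to 0.113) for Slc2a1, in 9 of the 12 leave-one-out fits (0.0669 to 0.103) for Pdk1, in 7 of the 12 leave-one-out fits (0.0536 to 0.0691) for Bbc3 and in 7 of the 12 leave-one-out fits (0.0584 to 0.078) for Eda2r. Hspa1a lost its call with limma-voom on recovered fragments (0.0963) and pseudocount 0.1 (0.087). Aldoc lost its call without RA_OGTi replicate 1 (0.0604) and without RA_control replicate 1 (0.0527), and Ei24 without RA_control replicate 1 (0.0584) and without mESC_control replicate 2 (0.0576).

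Among 13 tested neural genes 3 were called (23.1%), beside 7.69% of all genes. Of these, Dll1, a Notch ligand, and Tubb3, a neuronal tubulin, were called lower (-0.70, SE 0.13, adjusted p = 0.011 and -0.70, SE 0.15, adjusted p = 0.0173), and Ncam1, an adhesion molecule, higher (0.32, SE 0.074, adjusted p = 0.0261, a call lost in 5 of the 12 leave-one-out fits (0.0526 to 0.0722)). The neural marker sums above, which include Tubb3, were 19.3 to 21.5 FPKM in RA_control and 15.03 to 19.002 FPKM in RA_OGTi. Of those 5 markers only 2 passed the filter for testing. Of 18 extraembryonic endoderm genes 2 were called (11.1%). Cubn, an endocytic receptor, and Lama1, a laminin chain, were called lower (-0.73, SE 0.12, adjusted p = 0.00634 and -0.46, SE 0.10, adjusted p = 0.0206), and the lineage factors Gata6 and Gata4 were not (0.12 and 0.083, adjusted p = 0.618 and 0.742). Lama1 lost its call without RA_OGTi replicate 1 (0.0553) and without mESC_OGTi replicate 2 (0.051). Limma called 0 of 10 mesoderm genes, 0 of 22 DNA replication genes and 0 of 17 glutathione genes, beside 1, 3 and 3 at an unadjusted p under 0.05 and 0 in each by limma-voom.

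In the DNA methylation and TET list 2 of 13 genes were called (15.4%). Dnmt3l, a cofactor of DNA methyltransferases, fell in RA-treated cells from 102 ± 7.98 to 60.5 ± 2.74 FPKM and averaged 251 ± 4 and 225 ± 10.7 FPKM in mESCs (difference -0.58, SE 0.087, adjusted p = 0.00347). Mbd2, a reader of methylated DNA, fell in mESCs and was called higher (0.35, SE 0.061, adjusted p = 0.00736). Of 19 Polycomb genes and OGT partners 1 was called (5.26%, beside 7.69% of all genes). Ezh1 was lower (-0.31, SE 0.078, adjusted p = 0.0355), a call lost in 10 of the 12 leave-one-out fits (0.0555 to 0.0889) and under TPM scaling (0.154). Hcfc1, a cell cycle protein that OGT modifies and cleaves, was not called (0.083, adjusted p = 0.691), nor were the TET gene Tet1 (-0.071, adjusted p = 0.825) and Ezh2 (-0.10, adjusted p = 0.456).

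Other large differences were in genes outside the lists. Serpinf1 (ENSMUSG00000000753, chr11:75409769-75422701), which encodes a secreted anti-angiogenic factor, had 0.512, 0.535 and 0.4 FPKM in mESC_control, 0.575, 0.463 and 0.462 in mESC_OGTi, 3.34, 3.74 and 3.64 in RA_control, and 13.4, 11.4 and 13.6 in RA_OGTi. It was under 1 FPKM in mESCs and rose in RA-treated cells without overlap, the most positive difference among called protein-coding genes that reached a mean of 5 FPKM in a group (1.57, SE 0.11, adjusted p = 8.98e-05). Gpa33, an epithelial surface antigen, averaged 9.72 ± 0.294 and 10.5 ± 0.985 FPKM in mESCs and 1.74 ± 0.428 and 5.51 ± 0.328 FPKM in RA-treated cells (difference 1.17, SE 0.15, adjusted p = 0.0012). Mmrn2, an endothelial matrix protein, averaged 10.5 ± 0.44 and 8.87 ± 0.363 FPKM in mESCs and 1.75 ± 0.183 and 4.22 ± 0.184 FPKM in RA-treated cells (difference 1.14, SE 0.087, adjusted p = 0.000102). In both genes the RA_OGTi libraries stood between RA_control and the mESCs. Ntn1, the axon guidance cue netrin, rose from 5.04 ± 0.519 to 10.1 ± 0.301 FPKM in RA-treated cells (difference 0.97, SE 0.10, adjusted p = 0.000436), as did Pipox, a peroxisomal oxidase (0.92, SE 0.14, adjusted p = 0.00405). Myl7, an atrial myosin light chain, and Rhox1, an X-linked homeobox gene, had differences of 1.003 (SE 0.27, adjusted p = 0.0425) and 0.97 (SE 0.25, adjusted p = 0.0355), with calls lost in 10 of the 12 leave-one-out fits (0.0528 to 0.0933) and in 9 of the 12 leave-one-out fits (0.0588 to 0.0806).

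On the negative side, Rgcc (ENSMUSG00000022018, chr14:79288756-79301645), a regulator of the cell cycle, had 0.208, 0.434 and 0.548 FPKM in mESC_control, 0.352, 0.446 and 0.419 in mESC_OGTi, 13.4, 14.4 and 18 in RA_control, and 4.68, 4.6 and 4.08 in RA_OGTi. It was under 1 FPKM in mESCs, and RA_OGTi libraries lay below RA_control (difference -1.58, SE 0.16, adjusted p = 0.000433), a call lost with limma-voom on recovered fragments (0.0642). Prph, the intermediate filament peripherin of neurons, averaged 20.3 ± 1.07 and 22.9 ± 2.96 FPKM in mESCs and 97.3 ± 12 and 42.2 ± 1.6 FPKM in RA-treated cells (difference -1.33, SE 0.14, adjusted p = 0.000436). Zbtb32 (ENSMUSG00000006310, chr7:30589681-30598909), a zinc finger repressor, had 13.6, 12.5 and 13.4 FPKM in mESC_control, 7.95, 7.61 and 8.4 in mESC_OGTi, 7.89, 8.08 and 9.09 in RA_control, and 1.2, 1.02 and 1.63 in RA_OGTi. It fell in both states without overlap and most in RA-treated cells (difference -1.38, SE 0.13, adjusted p = 0.000286).

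Cidea, a lipid droplet protein, had 2.46, 1.71 and 2.05 FPKM in mESC_control, 3.94, 4.16 and 3.96 in mESC_OGTi, 7.79, 6.39 and 7.93 in RA_control, and 3.86, 5.01 and 4.78 in RA_OGTi. The inhibitor libraries lay above controls in mESCs and below them in RA-treated cells (difference -1.31, SE 0.15, adjusted p = 0.000814). Of 35 tested histone genes, whose copies are alike and whose values are therefore uncertain, Hist1h2bc was called higher (0.94, SE 0.14, adjusted p = 0.00327), and Hist1h3g, Hist1h4n and Hist1h1a lower (-1.005, -1.01 and -0.82, adjusted p = 0.0186, 0.046 and 0.0097). Other called list members were higher: Rpl39l (0.43) of 84 ribosomal protein genes besides Rpl10l, Itga5 (0.28) of 16 collagens, laminins and integrins, Col6a1 (0.58) of 5 fibroblast or feeder genes and Kif20a (0.27) of 20 genes of G2 and M phase, with adjusted p = 0.0337, 0.0348, 0.0378 and 0.0371. In the same order, the called shares of these lists were 2.38%, 6.25%, 20% and 5%, beside 7.69% of all genes. The called share of the histone genes was 11.4%. The ribosomal list had a median difference of -0.062, with 57 of 84 differences below 0. Rpl39l, Itga5, Col6a1 and Kif20a each lost the call in 8 or 9 of the 12 leave-one-out fits, and Hist1h4n in 11. Col6a1 was also not called under TPM scaling (0.172), with limma-voom (0.835) or with a pseudocount of 0.1 (0.593).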

How the data were processed

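RNA-seq of 12 libraries was analysed from 1 table of the whole series. The authors deposited FPKM values per gene with gene lengths and annotation. Per the submitters' processing notes, HISAT2 2.0.5, featureCounts 1.5.0 and the GRCm38 build were used. The sources used here do not give the scaling of the deposited FPKM between libraries. When multiplied by length, 100% of values came out as whole fragments (tolerance 0.02), with 15553627 to 17833464 fragments per library. The total that the deposited scaling implies was smaller than this in mESCs (fragments divided by implied total 1.06 to 1.11) and larger in RA-treated cells (0.883 to 0.934).

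Genes with at least 1 FPKM in at least 3 of 12 libraries were tested with limma 3.58.1 in R 4.3.3 on log2(FPKM + 1), with the variance trend, in 1 fit of the 4 groups (two-sided, 8 residual degrees of freedom). Fold changes on this scale understate the change of low genes. Every adjusted p is Benjamini-Hochberg over all 14866 genes tested, and a gene was called under 0.05. The script was tested on simulated data. Values are means ± SD of 3 libraries.

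The members and the 35 lists were chosen with earlier results of these data known. Genes were named as the 10 largest differences in each direction among called protein-coding genes with a mean of at least 5 FPKM in a group, the 3 largest of each pattern of effects, up to 4 called members of each list with at least 3, and a fixed set (Hoxb1, Cyp26a1, Rarb, Esrrb, Zfp42, Nanog, Sox2, Pou5f1, Gfpt1, Mgea5, Ogt). A few genes that met the rule are not reported here. All other genes named, such as Atf3, Atf4, Hspa5, Trib3 and the members that were not called, were chosen after their values were seen. Promoter sequences are from RefSeq (GRCm38.p6), and 9896 tested genes were matched by symbol. Tables and plots used Python 3.11.15, pandas 2.3.3, numpy 2.4.6 and matplotlib 3.10.9. Alternatives were another pseudocount, 2 other filters, TPM and median-of-ratios scaling, no variance trend, a replicate term, limma-voom on recovered fragments and leaving out each library.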

Additional observations from a re-analysis of the deposited data

Results flagged for a closer look

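The difference between the 2 inhibitor effects was itself the test, so all 1143 called genes met the rule for effects that differ between states. The threshold admits false calls, and 522 of the 1143 were called in every leave-one-out fit. Among the genes named by rule and given here, 5 stood out because the inhibitor effect was called in both states in opposite directions. The difference of log2 effects was -1.31 for Cidea, -1.28 for Ddit3, -1.09 for Nnat, -0.82 for Dhcr7 and 0.94 for Hist1h2bc. Inhibitor and control libraries did not overlap in either state for these 5 genes. Groups of 3 libraries were too small for the check of single outlying libraries.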

How the results depend on the processing

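Without 1 library, the count of called differences ran from 638 to 1032, with 284 to 519 higher and 354 to 571 lower. The inhibitor effect in mESCs was called for 361 to 1265 genes in those fits, and for 664 with no filter. The effect in RA-treated cells was called for 3594 to 4628 genes, and for 3145 with a mean of at least 5 FPKM, where 7942 genes were tested. The count of called differences was 1203 with TPM scaling, 1263 with median-of-ratios scaling, 1258 with limma-voom, 942 with a pseudocount of 0.1, 814 with no filter and 927 with the stricter filter. Of the 1143 calls, 342 were made in every alternative. None of the genes named by rule changed direction under the alternatives run. TPM scaling moved the median difference of all genes to 0.037, and edgeR's quasi-likelihood test was not run. Under TPM scaling, Eda2r (adjusted p = 0.106), Pdk1 (0.106), Acvr2b (0.0929) and Taf7l (0.0705) were among the genes that lost their call. Same-numbered libraries correlated at -0.021 to 0.12 and others at -0.18 to 0.13. These ranges overlap and cannot decide whether the replicate numbers pair the libraries. With the replicate number as a block, 1224 differences were called, with 1032 of the 1143 among them, while Trib3 (adjusted p = 0.055), Fos (0.052), Acvr2b (0.052), Cdx1 (0.0689), Taf7l (0.0663), Cdkn2a (0.0668), Myl7 (0.0575) and Hist1h4n (0.0697) were not. Of the 130 called genes under 1 FPKM in both mESC groups, limma-voom called 27, and the cause was not tested.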
